A study of Mus musculus with 10 samples.

Results

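Transcripts of T cells and natural killer (NK) cells were followed through 10 RNA sequencing libraries of mouse spleen erythroblasts, the nucleated precursors of red blood cells. The 10 genes were taken by name from the table of raw counts, which holds 53465 Ensembl genes, and all 10 passed the filter on low counts that left 14110 genes. The T cell genes were Cd3e, Cd3d, Cd3g, Lck, Thy1 and Cd5. The NK and cytotoxic genes were Ncr1, Nkg7, Prf1 and Gzma. The mice were of strain C57BL/6 and had received 5-FU, a drug that kills dividing cells, 11 days before. The groups were wild type (n = 2), miR-144/451-/- (n = 2), Nrf2-/- (n = 3) and a double mutant labelled Nrf2/miR-144/451-/- (n = 3), below called miR-144/451-null, Nrf2-null and double-null. miR-144/451 is a microRNA cluster that is abundant in red cell precursors, and Nrf2 is a transcription factor of the antioxidant response. Ages, doses and which mouse gave each library are not in the labels. The p-values therefore speak to the scatter among these libraries, which may be technical in part. In double-null, sex read from the counts differed between libraries, so these did not all come from the same mouse.

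T cells recognise antigen through a receptor whose variable chains cannot signal alone. The CD3 chains carry the signal into the cell, where the kinase Lck phosphorylates them. NK cells kill target cells without a variable receptor. NK cells and CD8 T cells share the same weapon, granules of perforin, which opens membranes, and granzymes, proteases that enter the target. Neither set belongs to the red cell program, while spleen is rich in T and NK cells. The labels state that erythroblasts were isolated with a Miltenyi Biotec product and give no purity.

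Libraries held 13087827 to 15131036 counts. The 12 genes of an erythroid list took 10.81% to 15.49% of each library, which matches the labelled cell type. The 10 T and NK cell genes together took 0.0019% to 0.0096%, or 277 to 1418 counts, and none was at 0 in any library. Xist was high and Y-linked counts near 0 in the wild type group and in double-null replicate 3, the pattern of female mice, and the reverse held in the other 7 libraries. Sex and genotype therefore cannot be told apart in comparisons with wild type. Markers of other immune cells were present too. The 11 macrophage genes summed to 81.9 to 387.9 normalised CPM (counts scaled to library size after TMM normalisation) in 9 libraries and to 1047 in Nrf2-null replicate 3, which stood apart. In a bulk sample, fewer cells of a type and less RNA per cell cannot be told apart.

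The sequences before the transcription starts are shown for the CD3 genes, which are neighbours on chromosome 9, and for the pair of genes that passed the threshold below, Lck and Gzma. RefSeq promoters (build GRCm38.p6, later than the mm9 of the submitters' processing notes) were found for 9 of the 10 genes in 11 windows of 250 bases, and Thy1 had no entry. Capitals mark AGGAAG or its reverse CTTCCT, letters typical of ETS factor sites, and TGTGGT or its reverse ACCACA, typical of RUNX sites. Lck has a pair of annotated starts.
Cd3e, chr9:45009612-45009861, minus strand: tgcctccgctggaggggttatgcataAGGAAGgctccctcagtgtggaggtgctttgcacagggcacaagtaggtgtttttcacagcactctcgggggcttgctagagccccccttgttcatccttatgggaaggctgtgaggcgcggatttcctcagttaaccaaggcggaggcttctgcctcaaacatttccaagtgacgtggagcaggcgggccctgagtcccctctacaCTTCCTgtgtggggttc
Cd3d, chr9:44981536-44981785, plus strand: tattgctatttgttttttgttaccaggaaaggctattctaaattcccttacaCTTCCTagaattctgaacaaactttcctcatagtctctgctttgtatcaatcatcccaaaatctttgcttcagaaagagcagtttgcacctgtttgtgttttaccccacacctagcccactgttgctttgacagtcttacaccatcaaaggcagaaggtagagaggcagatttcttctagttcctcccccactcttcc
Cd3g, chr9:44980432-44980681, minus strand: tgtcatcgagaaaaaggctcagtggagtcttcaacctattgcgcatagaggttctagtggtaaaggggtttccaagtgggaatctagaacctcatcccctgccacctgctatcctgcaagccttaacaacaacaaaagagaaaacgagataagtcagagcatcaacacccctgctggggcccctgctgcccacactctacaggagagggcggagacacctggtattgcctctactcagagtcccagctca
Lck upstream start, chr4:129573642-129573891, minus strand: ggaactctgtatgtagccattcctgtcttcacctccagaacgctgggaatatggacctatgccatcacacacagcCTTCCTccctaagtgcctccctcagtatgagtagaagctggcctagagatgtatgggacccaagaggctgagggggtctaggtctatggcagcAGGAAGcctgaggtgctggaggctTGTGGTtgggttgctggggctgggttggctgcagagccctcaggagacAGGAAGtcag
Lck downstream start, chr4:129558373-129558622, minus strand: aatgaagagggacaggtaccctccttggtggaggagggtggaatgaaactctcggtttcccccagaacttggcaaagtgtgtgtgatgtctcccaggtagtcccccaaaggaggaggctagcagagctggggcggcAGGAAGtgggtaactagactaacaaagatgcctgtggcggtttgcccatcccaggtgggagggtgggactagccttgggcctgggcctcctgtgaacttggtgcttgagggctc
Gzma, chr13:113100982-113101231, minus strand: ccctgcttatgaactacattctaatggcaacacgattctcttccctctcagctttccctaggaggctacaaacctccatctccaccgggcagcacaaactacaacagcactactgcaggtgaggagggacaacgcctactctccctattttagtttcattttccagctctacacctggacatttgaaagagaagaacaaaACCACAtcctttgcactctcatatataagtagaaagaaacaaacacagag
On both strands, the ETS letters stood in 7 of the 11 windows, against 29.5% of 32851 promoter windows of the same length. The RUNX letters stood in 6 of 11, against 14% of all windows. These 6 were the upstream start of Lck, those of Gzma, Nkg7 and Prf1, and both windows of Ncr1, which overlap and share most of their bases. An E-box, CAGNTG or CANCTG, stood in 9 of 11 windows, against 44.8%. The letters AGATAA or TTATCT, typical of the erythroid factor Gata1, stood in 1 of 11 windows, that of Cd3g, against 9.99%. No window held TATAAA or TTTATA, against 12.4%. These matches describe letters and show no binding.

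Levels of the genes were ranked on the FPKM scale, which divides by gene length. Over the 10 libraries Nkg7, which encodes a granule membrane protein of cytotoxic cells, had the highest mean, 8.43 ± 4.14 FPKM (SD, n = 10). Lck followed at 6.16 ± 2.76, granzyme A (Gzma) at 4.41 ± 3.23, Thy1, a surface protein of mouse T cells, at 3.54 ± 1.55 and Cd5, a brake on receptor signalling, at 2.24 ± 1.06 FPKM. The CD3 chain genes were lower, with Cd3d at 2.1 ± 1.1, Cd3g at 1.35 ± 0.58 and Cd3e at 0.955 ± 0.351 FPKM. Perforin (Prf1) stood at 0.973 ± 0.487 and Ncr1, the NK receptor NKp46, at 0.574 ± 0.449 FPKM. Each pair of neighbours in this order differed by less than the larger of their SDs. The FPKM of the CD3 chain genes were not equal, but their median normalised CPM over the 10 libraries, which are not divided by gene length, were close. The FPKM differences among them therefore do not show unequal counts. Lck exceeded each CD3 chain gene in FPKM in all 10 libraries.

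The CD3 chain genes overlapped between double-null and Nrf2-null libraries. Cd3e stood at 5.58 and 4.24 normalised CPM in wild type, then 3.21 and 2.93 in miR-144/451-null, 3.77, 4.66 and 5.74 in Nrf2-null, and 1.19, 5.02 and 2.59 in double-null replicates 1, 2 and 3. Double-null replicate 2 lay within the Nrf2-null range and replicate 1 below every other library. Cd3d stood at 6.92 and 3.34 CPM in wild type, then 1.68 and 4.22 in miR-144/451-null, 3.97, 4.66 and 4.51 in Nrf2-null, and 0.595, 5.24 and 2.52 in double-null. Here the double-null replicates spanned the Nrf2-null range, with replicate 2 above all 3 Nrf2-null libraries. The lowest value, in double-null replicate 1, rests on 8 counts (95% Poisson interval 3.45 to 15.8, counting error only).

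Cd3g stood at 6.86 and 3.83 CPM in wild type, then 2.33 and 4.34 in miR-144/451-null, 4.64, 5.94 and 6.50 in Nrf2-null, and 1.41, 5.17 and 2.74 in double-null. Thy1 had 16.5 and 11 CPM in wild type, then 5.98 and 12 in miR-144/451-null, 10.2, 10.5 and 11.8 in Nrf2-null, and 2.38, 16.4 and 8.29 in double-null. Cd5 had 8.13 and 5.21 CPM in wild type, then 2.77 and 4.46 in miR-144/451-null, 4.91, 5.11 and 6.35 in Nrf2-null, and 0.966, 5.32 and 2.59 in double-null. All 3 genes were lowest in double-null replicate 1, and the double-null libraries overlapped the Nrf2-null libraries for each.

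Lck, the kinase that phosphorylates the CD3 chains, did not overlap between libraries with and without the cluster. It stood at 27.6 and 21.4 CPM in wild type and 23.6, 28.4 and 23.7 in Nrf2-null, the groups that keep the cluster. In the groups that lack it, Lck stood at 10.5 and 14.8 CPM in miR-144/451-null and at 5.87, 14.1 and 9.87 in double-null. The ranges with and without the cluster, 21.4 to 28.4 and 5.87 to 14.8 CPM, are a grouping chosen after the values were seen. Of all tested genes 9.02% separated in this direction and 11.5% in the other. In double-null replicate 2, where Cd3e lay within and Thy1 above the Nrf2-null range, Lck was below every Nrf2-null library. Its count was 0.911 of the summed count of the 3 CD3 genes there, against 1.26 to 1.91 in the other 9 libraries.

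**Figure D1:**
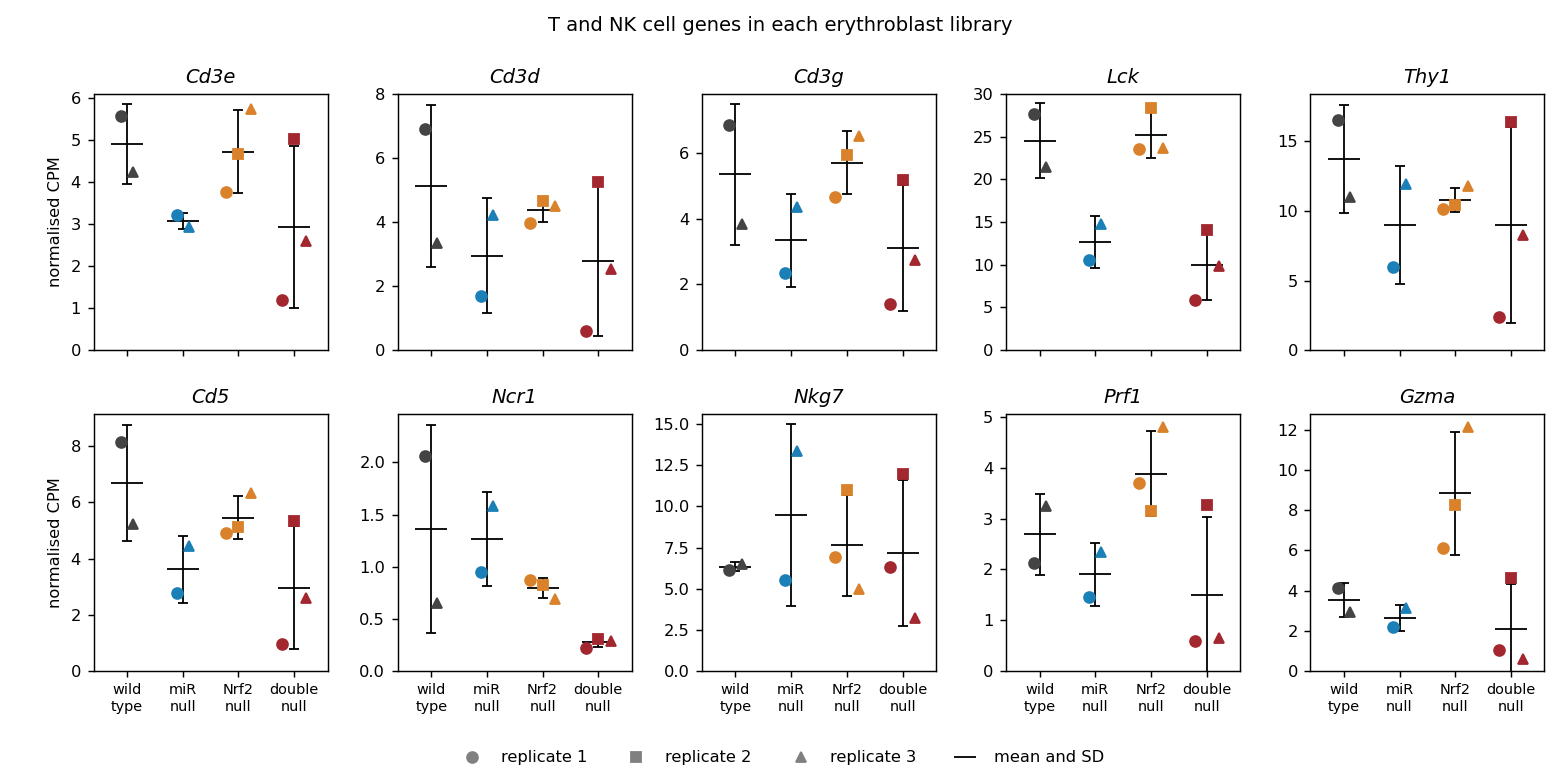
Normalised CPM (y axis, from 0) of each of the 10 T and NK cell genes in each library, grouped by genotype (x axis; miR null is miR-144/451-null), with the marker shape giving the replicate number and black bars the mean and SD, which are clipped at 0. Lck is the T cell gene whose double-null libraries, at 5.87 to 14.1 CPM, all lie below the Nrf2-null libraries, and double-null replicate 1 is the lowest library for 8 of the 10 genes.

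The NK and cytotoxic genes lay farther from their mean profile than the T cell genes did, with Gzma and Prf1 nearest to each other among the 4. Gzma stood at 4.13 and 2.93 CPM in wild type, then 2.19 and 3.11 in miR-144/451-null, 6.12, 8.27 and 12.2 in Nrf2-null, and 1.04, 4.64 and 0.576 in double-null. All 3 Nrf2-null libraries were above every other library. Prf1 stood at 2.12 and 3.26 CPM in wild type, then 1.46 and 2.35 in miR-144/451-null, 3.70, 3.16 and 4.82 in Nrf2-null, and 0.595, 3.27 and 0.648 in double-null. Double-null replicates 1 and 3, with 8 and 9 Prf1 counts, lay below all other libraries, while replicate 2 lay within the Nrf2-null range.

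Ncr1 was the rarest of the 10. It had 34 and 8 counts in wild type, then 13 and 27 in miR-144/451-null, 13, 11 and 9 in Nrf2-null, and 3, 4 and 4 in double-null. On the CPM scale these were 2.06 and 0.652, 0.949 and 1.58, 0.875, 0.827 and 0.689, and 0.223, 0.304 and 0.288. The double-null libraries were the 3 lowest, and their Poisson intervals, such as 1.09 to 10.2 for 4 counts, reached those of Nrf2-null.

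Nkg7 followed none of these patterns. It stood at 6.13 and 6.52 CPM in wild type, then 5.55 and 13.4 in miR-144/451-null, 6.93, 11 and 4.97 in Nrf2-null, and 6.32, 12 and 3.24 in double-null. The libraries high in Nkg7 were miR-144/451-null replicate 3, Nrf2-null replicate 2 and double-null replicate 2, 1 in each mutant group. A list of 6 mast cell and basophil genes summed to 55.2, 31.6 and 55.0 CPM in these libraries. In all others it summed to 4.51 to 25.8 CPM. Of the sums in the libraries high in Nkg7, the gene Kit alone gave 39.5, 20.1 and 23.5 CPM. Other genes of the list did not separate these libraries. Double-null replicate 3, the lowest in Nkg7, exceeded Nrf2-null replicate 2 in Mcpt8 (3.89 against 3.23 CPM) and Cpa3 (1.73 against 1.13). It was also higher in Prss34, while Kit was lower there (10.3 against 20.1 CPM). The match of the list sum with Nkg7 was seen after the values were known. The part of mast cells and basophils in the Nkg7 values was not tested. In double-null replicate 1, the Nkg7 count was 1.98 times the summed CD3 count, against 0.297 to 1.16 in the other libraries.

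How alike the profiles were was measured as the root mean square difference of centred log2 CPM over the 10 libraries, in which 0 means the same profile. The T cell genes lay 0.116 (Cd5) to 0.287 (Lck) from their mean profile, and the NK and cytotoxic genes 0.369 (Prf1) to 0.628 (Ncr1) from theirs. The closest pair was Cd3d and Thy1, at 0.215. Among 8407 genes with at least 5 CPM, the gene nearest to the T cell profile was Cd8a, the coreceptor of cytotoxic T cells, at 0.134. Gabbr1 (0.178), Tecpr1 (0.188), Rgs3 (0.191) and Trac, the constant region of the T cell receptor alpha chain (0.192), followed. Nearest to the NK and cytotoxic profile were Pdxk (0.253), Arhgap15 (0.283), Sptbn1 (0.30), Fli1 (0.302) and Dock10 (0.304), of which none is an NK cell marker of the lists. Among 138 candidates from the immune cell lists, the other members included, Nkg7 lay nearest to Cst7 (0.368), which encodes a protease inhibitor of granules, then Srgn (0.426), the granule proteoglycan serglycin, which myeloid cells also express. Gzma lay nearest to Klrg1 (0.434), a receptor of mature NK and effector T cells, and Prf1 to Klre1 (0.338), an NK cell receptor. Ncr1, at low counts, lay nearest to Foxp3 (0.292), a factor of regulatory T cells, and Lck to the NK cell receptor gene Klrd1 (0.252).

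Loss of the cluster with Nrf2 absent was read from double-null against Nrf2-null. All 10 genes had a negative log2 fold change, with a median of -0.88, against a median of 0.02 over all tested genes. Of the 10, Lck and Gzma fell past the threshold (edgeR quasi-likelihood test, Benjamini-Hochberg adjusted p under 0.05). At an unadjusted p under 0.05, 4 of the 10 were lower. Of all tested genes, 2768 of 14110 were lower at that p, and 39.6% reached it in either direction. The 2 of 10 (20%) compare with 12.9% of all 14110 tested genes called lower, 14.4% called higher and 27.3% called in either direction. The count of called members is thus near the background. Lck fell from 25.3 ± 2.74 to 9.93 ± 4.09 CPM (SD, n = 3 each), a log2 fold change of -1.35 ± 0.28 (SE; adjusted p = 0.00537), or 2.54-fold. Gzma fell from 8.85 ± 3.06 to 2.08 ± 2.22 CPM, a log2 fold change of -2.09 ± 0.61 (adjusted p = 0.033), or 4.25-fold. Both were lower in 3 of 3 double-null libraries than in any Nrf2-null library, as was Ncr1, a separation that 21.8% of tested genes showed in the same direction and 23.4% in the other. DESeq2 also called 2 of the 10.

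The other 8 genes did not pass. Ncr1 had a log2 fold change of -1.52 ± 0.60 (adjusted p = 0.0704) and Prf1 of -1.37 ± 0.58 (adjusted p = 0.103). Cd5 stood at -0.88, Cd3g at -0.87, Cd3e at -0.69, Cd3d at -0.65, Thy1 at -0.26 and Nkg7 at -0.09 on the log2 scale. The 95% interval for Cd3e ran from -1.63 to 0.26 and that for Thy1 from -1.48 to 0.96, so each holds both no change and a loss of 2-fold.

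**Figure D2:**
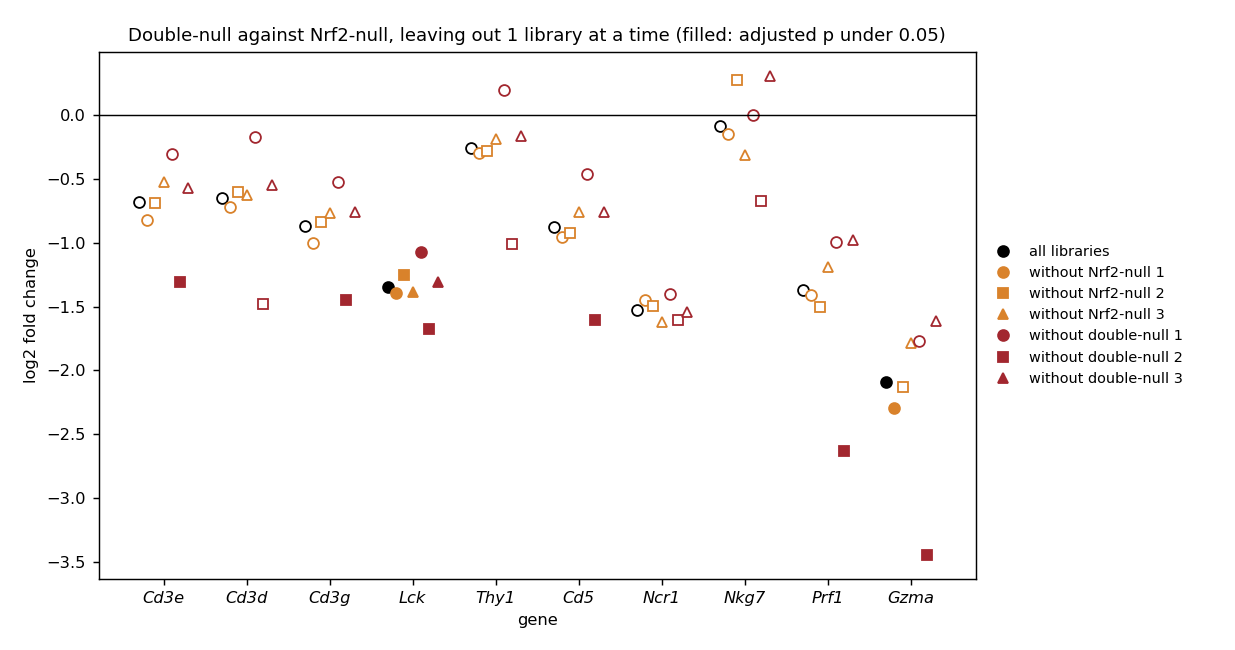
Log2 fold change of each gene (y axis) in double-null against Nrf2-null with all libraries (black) and without each of the 6 libraries of those groups in turn (orange circle, square and triangle for Nrf2-null replicates 1, 2 and 3, and red for double-null). Filled markers had an adjusted p under 0.05: Lck is filled throughout, at -1.68 to -1.08, and 6 genes are filled without double-null replicate 2. In that last setting 25.4% of all tested genes passed the same threshold.

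The Lck call held in all 17 alternative analyses, with adjusted p from 1.15e-07 to 0.0274 and a log2 fold change from -1.68 to -1.08. Gzma kept its sign in all 17 and its call in 10. Leaving out Nrf2-null replicate 3 gave -1.79 (adjusted p = 0.0925), Nrf2-null replicate 2 gave -2.13 (0.0611), double-null replicate 1 gave -1.77 (0.096) and double-null replicate 3 gave -1.61 (0.0792). Without wild type replicate 3 it was -2.08 (adjusted p = 0.0505). Without double-null replicate 2 the count of called genes rose from 2 to 6, adding Cd3e (-1.31), Cd3g (-1.45), Cd5 (-1.61) and Prf1 (-2.63), and Gzma moved to -3.44. Of all tested genes 25.4% were called in either direction in that setting, against 27.3% with all libraries. The Ncr1 call appeared without wild type replicate 3 (-1.52, adjusted p = 0.048), and the sign of Thy1 turned without double-null replicate 1 (0.19). Nkg7 turned positive in 3 alternatives, reaching 0.30 without double-null replicate 3.

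Summed over the 6 T cell genes, double-null libraries held 12.4, 51.2 and 28.6 CPM against 51.1, 59.2 and 58.6 in Nrf2-null, 26.5 and 42.7 in miR-144/451-null and 71.6 and 49.0 in wild type. The 11 B cell genes summed to 357, 787 and 407 CPM in double-null against 1121, 978 and 1121 in Nrf2-null. They summed to 723 and 981 in miR-144/451-null and 1286 and 1639 in wild type. The B cell sum was 14.2 to 33.4 times the T cell sum over the libraries. In double-null against miR-144/451-null the median log2 fold changes were -1.39 for the B cell genes and -0.10 for the T cell genes. The B cell sum in double-null replicate 2 stayed below every Nrf2-null library, while the T cell sum there was at the lowest Nrf2-null value. In double-null against Nrf2-null, 10 of 11 genes of the B cell list fell past the threshold, against 12.9% of all tested genes called lower. All 11 were negative, with a median log2 fold change of -1.83. The medians were -0.78 for the 6 T cell genes and -1.45 for the 4 NK and cytotoxic genes. Macrophage genes summed to 81.9, 213 and 360 CPM in double-null and to 388, 318 and 1047 in Nrf2-null, highest in the library that was also highest in Gzma and Prf1. The 10 neutrophil genes summed to 1227, 1147 and 1227 CPM in double-null and to 587, 1210 and 176 in Nrf2-null. No defining marker of these cells was at 0 in any library, and their part in the T and NK cell values was not tested.

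**Figure D3:**
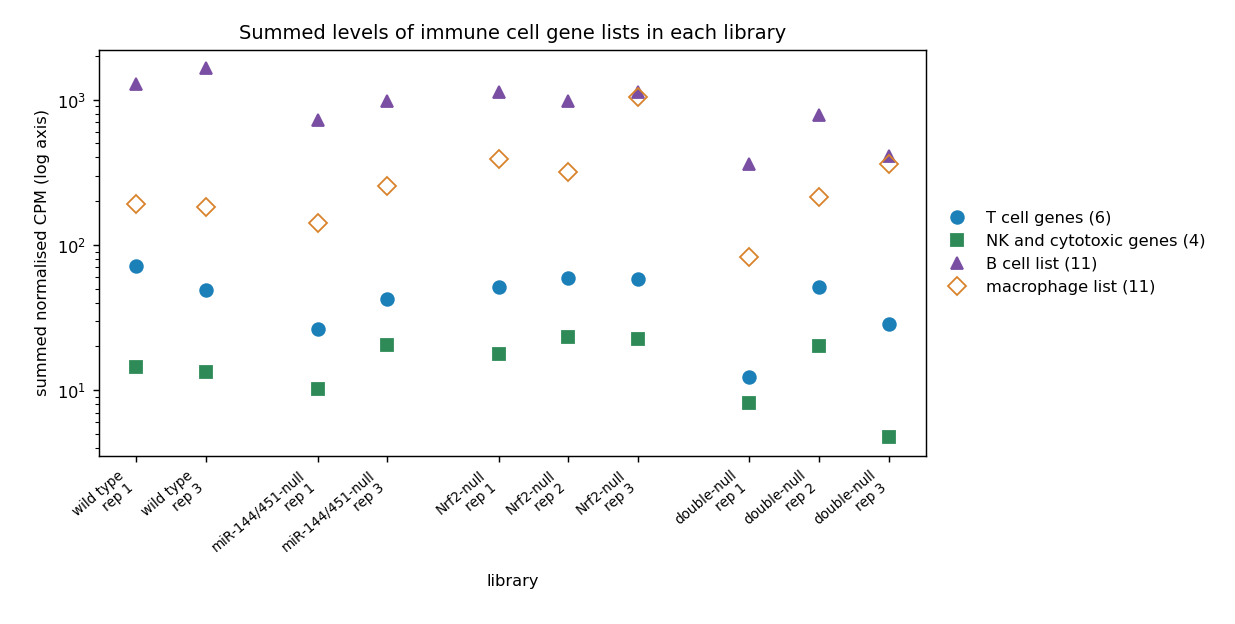
Summed normalised CPM (y axis, log scale) of the 6 T cell genes, the 4 NK and cytotoxic genes, the 11 B cell genes and the 11 macrophage genes in each library (x axis). The T cell sum runs from 12.4 CPM in double-null replicate 1 to 71.6 in wild type replicate 1, and the B cell sum lies above it in every library.

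Other genes of T and NK cells were read in the same comparison. Of 17 further genes of the T cell receptor and its signalling, none passed edgeR's threshold or that of DESeq2, against 12.9% of all tested genes called lower. These genes included the zeta chain Cd247, the kinase Zap70 and the adaptor Lat. At an unadjusted p under 0.05, 1 of the 17 was lower, against 2768 of 14110 tested genes lower and 39.6% in either direction. The median log2 fold change of the list was -0.63 and 15 of 17 were negative. Among the more abundant were Fyn (-0.63 ± 0.46), a Src family kinase like Lck, Lcp2 (-0.61 ± 0.37) and Rhoh (-0.56 ± 0.35). Of 14 surface and homing genes, 3 fell, against 12.9% of all tested genes, with a list median of -0.98. These were the adhesion receptor Cd2 (-1.57 ± 0.38, adjusted p = 0.0128), the chemokine receptor Ccr7 (-1.73 ± 0.49) and the egress receptor S1pr1 (-1.50 ± 0.44). Of 8 T cell transcription factor genes, 2 fell, against the same 12.9% of all tested genes. These were Ets1 (-1.30 ± 0.35, adjusted p = 0.025) and Ikzf3 (-1.67 ± 0.39). Genes of these lists, such as Ccr7, S1pr1, Ets1 and Ikzf3, are also expressed by B cells. The part of B cells in these values was not tested.

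Of 17 NK cell receptor and adaptor genes, 2 fell, a share below the 12.9% of all tested genes. The list median was -0.86, and all 17 values were negative, as were 6906 of the 14110 tested genes. Of the more abundant genes of the list, Fcer1g, Tyrobp and Fcgr3 were highest in Nrf2-null replicate 3, at 28.1, 24.3 and 16.1 CPM. Il2rb was highest in double-null replicate 2, at 26.4 CPM. Nrf2-null replicate 3 also stood apart in its macrophage sum, and the part of macrophages in these values was not tested. Klrd1, the CD94 receptor, went from 3.03, 2.63 and 2.45 CPM in Nrf2-null to 0.743, 1.82 and 1.22 in double-null (-1.09 ± 0.37, adjusted p = 0.0474). Klrg1 had 11, 16 and 17 counts in Nrf2-null and 1, 3 and 0 in double-null (adjusted p = 0.0132). Among 7 transcription factor genes of these cells 1 fell, against 12.9% of all tested genes. It was Tbx21, which encodes T-bet (-1.17 ± 0.40, adjusted p = 0.0499), and Zeb2 stood at -0.04 ± 0.12. Of 15 further granule and effector genes, 13 were tested. Of these only granzyme K (Gzmk) fell past the threshold, against 12.9% of all tested genes. It had 13, 7 and 16 counts in Nrf2-null and 0, 0 and 2 in double-null (adjusted p = 0.00849). The broadly expressed lysosome and secretion genes Lamp1 (0.52 ± 0.13) and Unc13d (0.71 ± 0.17) rose, against 14.4% of all tested genes called higher. Srgn stood at 0.13 ± 0.23. Leaving out double-null replicate 2 raised the lower calls from 0 to 6 for receptor signalling, from 3 to 6 for surface genes, from 2 to 4 for T cell transcription factors and from 2 to 8 for NK cell receptors. They rose from 1 to 3 for both the NK transcription factors and the granule genes. Over all tested genes, 1794 of 14017 were called lower in that setting, against 1825 of 14110 with all libraries. Lower calls over all tested genes were 1255 without double-null replicate 3, 1374 without double-null replicate 1 and 1297 without Nrf2-null replicate 3. Without double-null replicate 3 no surface or T cell transcription factor gene passed. Without double-null replicate 1 the counts were 1 and 1, and without Nrf2-null replicate 3 the surface count was 1. The NK receptor count was 3 without miR-144/451-null replicate 3 and 1 without any of the other 8 libraries. The NK transcription factor list kept a call only without Nrf2-null replicate 2, double-null replicate 2 or miR-144/451-null replicate 3, and the granule list had no lower call without Nrf2-null replicate 1 or 3.

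Loss of the cluster with Nrf2 present, miR-144/451-null against wild type, called none of the 10 genes by edgeR, against 4.63% of all tested genes, 2.23% lower and 2.4% higher. At an unadjusted p under 0.05, 1 gene was lower, against 18.4% of all tested genes in either direction, and DESeq2 called 1, in both cases Lck. Lck had 12.6 ± 3.03 CPM in miR-144/451-null and 24.5 ± 4.38 in wild type (SD, n = 2 each), with a log2 fold change of -0.95 ± 0.33 (edgeR adjusted p = 0.148; DESeq2 -0.98, adjusted p = 0.046). This comparison shares no library with that of double-null and Nrf2-null, but both come from the same fit with a shared estimate of the spread. Its wild type libraries were female and its miR-144/451-null libraries male. With a term for sex the edgeR adjusted p of Lck was 0.571. Over 17 alternatives Lck kept its sign in all and passed the threshold in 2. Cd3e and Cd5 were also lower in both miR-144/451-null libraries than in both of wild type, a separation found for 22.8% of tested genes, with 24.2% separated the other way. The 6 T cell genes lay between -0.95 and -0.61, with a median of -0.74, while Ncr1 stood at -0.12, Prf1 at -0.48, Gzma at -0.41 and Nkg7 at 0.59. Leaving out 1 library moved these values. Without miR-144/451-null replicate 3 Cd3d stood at -1.60, Cd3g at -1.18 and Thy1 at -1.18, while without wild type replicate 1 Cd3d stood at -0.18 and Cd3g at -0.20, and without miR-144/451-null replicate 1 Thy1 stood at -0.20. Ncr1 ran from -0.69 without wild type replicate 3 to 0.95 without wild type replicate 1. With a term for sex, Nkg7 stood at -0.91, Prf1 at -2.04 and Gzma at -2.69. That term rests on double-null replicate 3 against double-null replicates 1 and 2.

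Loss of Nrf2 was read with and without the cluster. In Nrf2-null against wild type edgeR called none of the 10 genes, against 0.191% of all tested genes (0.0638% lower, 0.128% higher), with none at an unadjusted p under 0.05, against 12.1% of tested genes, and none by DESeq2. Gzma had the largest value, 8.85 ± 3.06 against 3.53 ± 0.85 CPM (1.32 ± 0.67 on the log2 scale, adjusted p = 0.465). It was higher in 3 of 3 Nrf2-null libraries than in both wild type libraries, as for 15.7% of tested genes (20.1% the other way), and turned to -0.96 with a term for sex. Under that term Nkg7 turned from 0.27 to -1.23 and Prf1 from 0.54 to -1.02, so 3 of the 4 NK and cytotoxic genes changed sign. The term rests on double-null replicate 3, the female library of that group, against replicates 1 and 2. Double-null replicate 3 was the lowest of all libraries for Nkg7 and Gzma and held 0.648 CPM of Prf1. The T cell genes lay between -0.35 (Thy1) and 0.08 (Cd3g, -0.06 without TMM factors), and 5 of these 6, all but Thy1, changed sign when wild type replicate 1 or 3 was left out. In double-null against miR-144/451-null none was called, against 0.0638% of tested genes (0.0142% lower, 0.0496% higher), with 1 at an unadjusted p under 0.05, against 10.7% of tested genes, and none by DESeq2. That gene was Ncr1, at 0.272 ± 0.043 CPM in double-null (n = 3) and 1.27 ± 0.45 in miR-144/451-null (n = 2; -2.19 ± 0.62, adjusted p = 0.272). Its groups did not overlap, as for 12.4% of tested genes in that direction and 12.1% in the other. The other 9 lay between -0.40 (Nkg7) and 0.002 (Thy1, -0.23 without TMM factors). Single libraries moved them too: without double-null replicate 2 Gzma stood at -1.71, Prf1 at -1.61, Cd3d at -0.92 and Thy1 at -0.75. Without double-null replicate 3 Gzma stood at 0.12 and Prf1 at 0.04, and without miR-144/451-null replicate 3 Cd3d stood at 0.69 and Thy1 at 0.55.

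Whether cluster loss acted differently with and without Nrf2 was tested by the interaction, which called 0.0638% of tested genes (0.0354% lower, 0.0283% higher) and none of the 10. None had an unadjusted p under 0.05, against 4.46% of tested genes, and DESeq2 called none. The interaction was -1.67 ± 0.97 on the log2 scale for Gzma, -1.41 ± 0.83 for Ncr1, -0.39 ± 0.43 for Lck and -0.01 ± 0.68 for Cd3e. With a term for sex that of Gzma turned to 1.06. The 95% interval for Lck ran from -1.34 to 0.56, so its fall in double-null is not shown to differ from its lower value in miR-144/451-null.

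**Figure D4:**
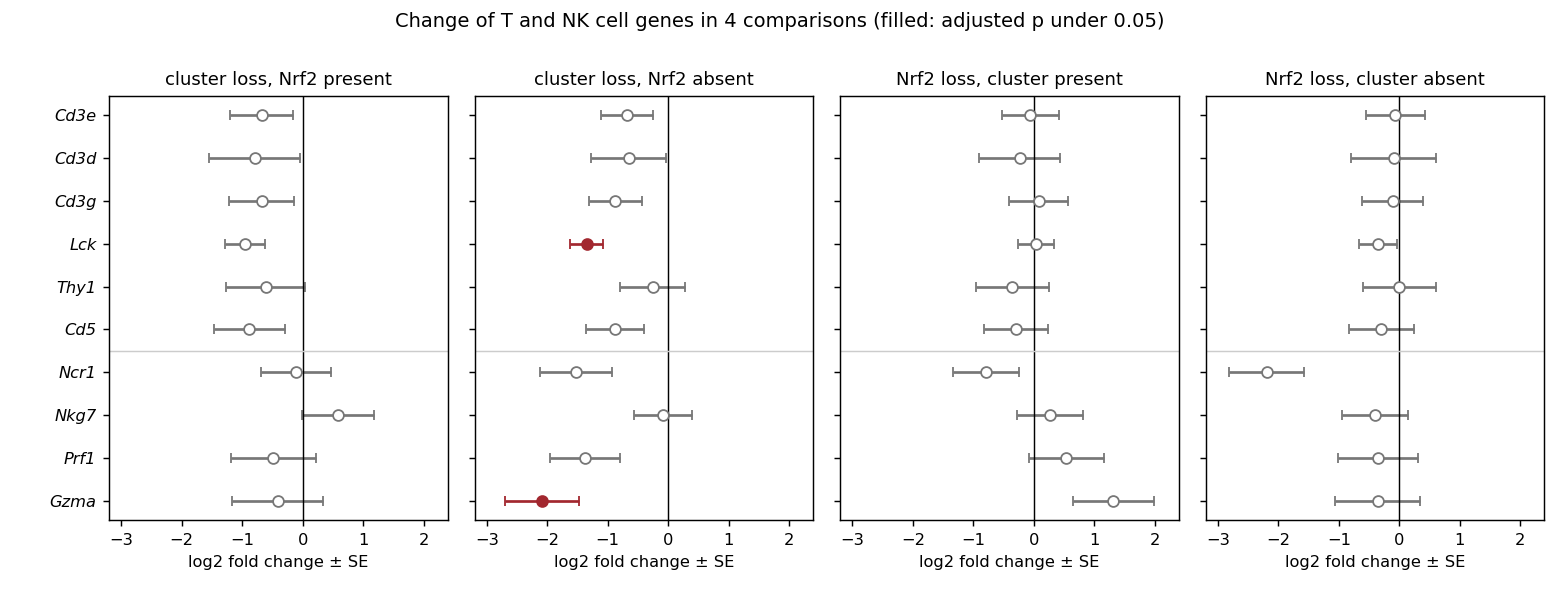
Log2 fold change with its SE (x axis) of the 10 genes (y axis) in the 4 comparisons, 1 panel each, with T cell genes above the grey line and NK and cytotoxic genes below it. Filled red markers passed an adjusted p under 0.05, which holds for Lck (-1.35) and Gzma (-2.09) in the panel of cluster loss with Nrf2 absent.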

How the data were processed

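RNA of 10 erythroblast libraries was sequenced by the authors after preparation with a VAHTS kit, per the labels' protocols. The authors deposited raw counts per Ensembl gene and, per library, FPKM values, which are the counts over the library total and a single length for each gene. Build mm9 and the tools TopHat2, HISAT2 2.1.0, Bowtie2 2.2.3 and CASAVA stand in the submitters' processing notes. Strand setting, annotation and counter were not given in the sources used here, so overlapping and antisense genes were not told apart. Symbols came from GENCODE M21 by Ensembl identifier (99.64% matched), with Cd244 matched by its synonym.

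All 10 libraries entered a fit in R 4.3.3 with edgeR 4.0.16 (filterByExpr, TMM factors, robust quasi-likelihood test, two-sided, 6 residual degrees of freedom), adjusted over all 14110 tested genes. SEs came from the weights and quasi-dispersion of that fit, and intervals are at 95%. Replicate pairs gave chi-square values of 16.2 to 28.3 times their degrees of freedom, and all were kept apart. The genes and lists were chosen with earlier results of these data known. Named were all 10 genes, up to 4 genes per list by mean CPM and up to 4 by p among those past the threshold, of which the text gives those it needs, and the 5 genes nearest to each mean profile (prior count 2). Nearest list genes for single members were sought after the values were seen. Alternatives were DESeq2 1.42.0, no filter, no TMM factors, the replicate block, a term for sex, removal of globin genes, the groups compared alone and each library left out. FPKM were used only to rank levels between genes.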

Additional observations from a re-analysis of the deposited data

How the results depend on the processing

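The number of the 10 genes past the threshold in double-null against Nrf2-null, 2 with all libraries, was 1 with a term for sex and 1 with only the libraries of those 2 groups. Leaving out 1 library gave 1 to 6. For cluster loss with Nrf2 present, 0 became 1 with DESeq2 and 1 without the filter on low counts, and it was 0 to 0 with a library left out. For Nrf2 loss with the cluster present and for Nrf2 loss without it, 0 became 1 and 1 without the filter (Gzma, 1.34; Ncr1, -2.22), and for the interaction it was 0 in each alternative run. The interaction could not be run on 2 groups alone. Of the values of single genes under an alternative, 820 kept their side of the threshold, 7 lost a call (all Gzma in double-null against Nrf2-null), 10 gained one, and none that was called turned its sign.

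With the replicate block, 2 genes passed in double-null against Nrf2-null and 0 in each other comparison, so the block changed no call. Libraries share a number between groups in 13 pairs, whose deviations correlated at -0.111 to 0.287, with 1 pair above 0.1, and 2 of 10 libraries correlated best with their own number. The numbers were not taken to pair the libraries.

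Counts over all tested genes moved more. They ran from 1 (term for sex) to 1254 (no filter) around 653 for cluster loss with Nrf2 present, and from 2646 (without Nrf2-null replicate 1) to 4346 around 3850 for double-null against Nrf2-null. For Nrf2-null against wild type they ran from 11 to 716 around 27, for double-null against miR-144/451-null from 2 to 743 around 9, and for the interaction from 2 to 232 around 9, each highest without the filter. The split of higher and lower calls in that first comparison, 338 and 315, was 497 and 247 without TMM factors, which moved the median of all genes to 0.147, and to -0.123, -0.238 and -0.105 for both Nrf2 comparisons and the interaction. The term for sex rests on the double-null libraries alone, with replicate 3 female and replicates 1 and 2 male. Ncr1, at 3 to 34 counts per library, is the gene whose counting error limits it most.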
